A study of Arabidopsis thaliana with 5 samples.

Results

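The genes described here encode the core of the Polycomb repressive machinery of Arabidopsis thaliana, measured in seedlings of the mutant Atino80-5 and of the wild type. They are 10 loci named by a list: the histone methyltransferase genes CLF, SWN and MEA, the Su(z)12 homologues EMF2, VRN2 and FIS2, the WD40 genes FIE and MSI1, and the further repressors LHP1 and EMF1. Array probes were assigned to these loci through the RefSeq transcripts named in the array files, and all 10 had at least 1 probe among the 34285 genes and unnamed transcripts on the array. Of these 10, 8 passed the filter on dim signals, which 26657 of the 34285 passed. The 2 groups were 3 arrays of Atino80-5 and 2 arrays of wild type. Both genotypes were sampled as whole seedlings 12 days old, grown on MS medium at 22 °C in 16 h of light and 8 h of dark. Atino80-5 is a mutant named for INO80, the gene of the ATPase of a chromatin remodelling complex, and it was the only mutant line on these arrays. The labels give neither the ecotype nor the lesion. Nothing in them tells if replicate arrays came from separate cultures. The p-values therefore reflect the spread among these arrays alone, and that spread may be technical. The comparison asked which genes differed in transcript level between the mutant and the wild type.

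Polycomb repressive complex 2 (PRC2) places methyl groups on lysine 27 of histone H3, a mark that keeps developmental genes silent outside their proper time and tissue. Each plant PRC2 joins a methyltransferase, a Su(z)12-type protein and the WD40 proteins FIE and MSI1, and plants hold several forms that differ in their exchangeable subunits. In seedlings the forms with CLF or SWN and EMF2 or VRN2 hold floral organ genes and flowering genes in check, while the form with MEA and FIS2 works in the female gametophyte and the endosperm. Proteins of PRC1 type, and plant-specific partners such as EMF1, act on the marked chromatin.

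Each array was read as a scaled signal, the processed signal of the scanner software multiplied so that all arrays shared a 75th percentile of 4582. Before scaling that percentile was 4478, 4639 and 4805 on the Atino80-5 arrays, against 4503 and 4494 on the wild type arrays. Between 77.3% and 81.6% of the 43603 probes were well above background on an array. Across the 26657 genes above the filter, each read by 1 probe, log2 signals correlated at 0.9951 to 0.9964 between arrays of the same genotype. Between genotypes the correlations were 0.9799 to 0.9817. Slide 2 carried Atino80-5 array 3 by itself, and the other arrays were on slide 1. The check of the labels was INO80 (AT3G57300), whose 2 probes disagreed. Probe A_84_P20358 had scaled signals of 63.6, 54.4 and 59.9 in Atino80-5, against 9604 and 9472 in wild type, a log2 change of -7.33 ± 0.073 (SE). Probe A_84_P835513 had 516, 478 and 467 in Atino80-5, against 134 and 126 in wild type, a log2 change of 1.90 ± 0.058 (SE). Where these probes lie relative to the lesion is not given in the sources used here.

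Most Polycomb genes differed little between the genotypes. Of the 8 genes above the filter, MSI1 and EMF2 fell in Atino80-5, CLF rose, and SWN, VRN2, FIE, LHP1 and EMF1 did not pass the test. A gene was called at an adjusted p under 0.05 in limma's moderated test, with Benjamini-Hochberg adjustment over all 26657 genes. That count of 3 called, or 37.5% of 8, stands beside 57.1% of all genes called in the same fit, 30.7% higher and 26.4% lower. The median size of the log2 change, without its sign, was 0.055 over the 8 Polycomb genes and 0.20 over all genes tested. For 4 of the 8 genes the ranges of Atino80-5 and wild type were apart, against 74.6% of all genes. A called change of at least 2-fold was found in 0 of the 8 genes, against 7.23% of all genes. The standard errors of the 8 changes ran from 0.026 to 0.049, and the median standard error over all genes was 0.042. In RNA from whole seedlings, fewer cells of a type and less RNA per cell cannot be told apart.

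**Figure D1:**
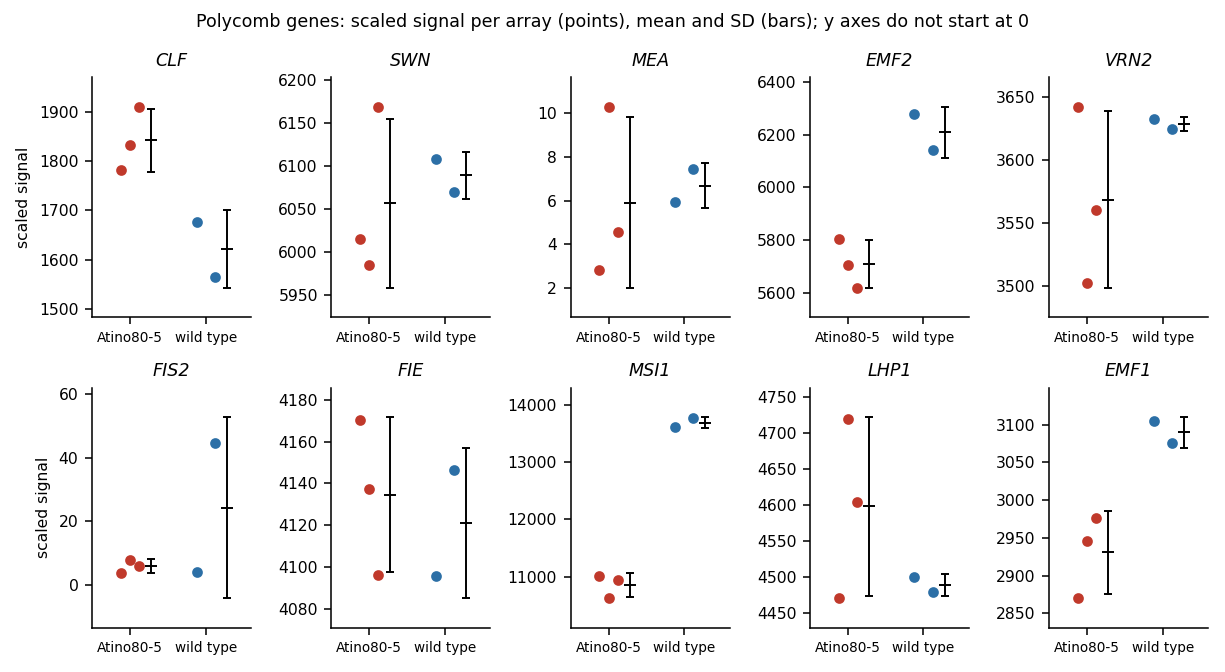
Scaled signal (arbitrary units, y axes not starting at 0) of each of the 10 Polycomb genes on each array, with Atino80-5 (3 arrays, red) at the left and wild type (2 arrays, blue) at the right of each panel; bars give the mean and SD. MSI1 and EMF2 lie lower and CLF higher on all 3 Atino80-5 arrays than on either wild type array, and MEA stays near background with signals from 2.81 to 10.3.

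Among the methyltransferase genes, which encode the catalytic subunit of PRC2, CLF differed between the genotypes and SWN did not pass the test. CLF (CURLY LEAF, AT2G23380), whose loss is known for curled leaves and early flowering, gave scaled signals of 1782, 1832 and 1910 on the Atino80-5 arrays, against 1677 and 1565 on the wild type arrays. Every Atino80-5 array was above both wild type arrays, with means of 1841 ± 64.5 (SD, n = 3) in Atino80-5 and 1621 ± 79.2 (SD, n = 2) in wild type. CLF was therefore 1.14-fold higher in Atino80-5, a log2 change of 0.18 ± 0.049 (SE, 95% interval 0.055 to 0.31) with an adjusted p of 0.0302 in limma. Of all genes tested, 53.3% had a larger change than CLF in either direction. The call on CLF was lost without Atino80-5 array 2, without Atino80-5 array 3 and without wild type array 2, at adjusted p-values of 0.0733, 0.0665 and 0.137. It was lost as well under quantile normalization (adjusted p of 0.0638), median scaling (0.0753), the authors' value table (0.0609) and no filter on dim probes (0.0596).

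SWN (SWINGER, AT4G02020), which acts alongside CLF in the vegetative plant, gave 6015, 5985 and 6169 in Atino80-5, against 6109 and 6070 in wild type. The genotypes overlapped. The log2 change of SWN was -0.0079 ± 0.028 (SE, 95% interval -0.081 to 0.066), with an adjusted p of 0.826 in limma, and 97.7% of all genes had a larger change. Read within each array, the log2 value of CLF minus that of SWN was 0.19 higher in Atino80-5 than in wild type. All 3 Atino80-5 arrays lay above both wild type arrays in this difference. The exact permutation test over arrays gave a two-sided p of 0.2, the smallest that 3 arrays against 2 allow, and 0.2 after adjustment over the 4 pairs of related genes tested.

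MEA (MEDEA, AT1G02580), the methyltransferase gene of the seed form of PRC2, was not well above background on any array. Its scaled signals were 2.81, 10.3 and 4.57 in Atino80-5, against 5.95 and 7.43 in wild type, and no change is given.

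The Su(z)12 homologues encode zinc finger proteins with a VEFS domain that hold the methyltransferase in the complex. EMF2 (EMBRYONIC FLOWER 2, AT5G51230), which keeps seedlings from flowering at once, was covered by 2 probes. The brighter, A_84_P20675, gave scaled signals of 5803, 5705 and 5618 in Atino80-5, against 6278 and 6140 in wild type. The dimmer, A_84_P784776, gave 1740, 1788 and 1791 in Atino80-5, against 1953 and 1875 in wild type. On both probes every Atino80-5 array was below both wild type arrays. EMF2 fell by 0.12 ± 0.029 (SE, 95% interval -0.20 to -0.044) on the log2 scale on the brighter probe, a 1.09-fold lower level with an adjusted p of 0.0227 in limma. The dimmer probe fell by 0.11 ± 0.034 (SE), with an adjusted p of 0.0452 over all probes, of which 55.5% were called. The call on EMF2 was lost without Atino80-5 array 2, without Atino80-5 array 3, without wild type array 1 and without wild type array 2, at adjusted p-values of 0.0662, 0.0614, 0.123 and 0.0694.

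VRN2 (VERNALIZATION 2, AT4G16845), known for keeping FLC silent after winter cold, also had 2 probes, and neither was called. The brighter, A_84_P808127, gave 3642, 3502 and 3560 in Atino80-5, against 3632 and 3624 in wild type. The other, A_84_P118052, gave 2483, 2662 and 2690 in Atino80-5, against 2536 and 2550 in wild type. The genotypes overlapped on both. The log2 change of VRN2 was -0.024 ± 0.029 (SE, 95% interval -0.10 to 0.053) on the brighter probe, with an adjusted p of 0.519 in limma, and 0.037 ± 0.045 (SE) on the other. Within arrays, the log2 value of EMF2 minus that of VRN2 was lower in Atino80-5, with a change of -0.097 and an exact permutation p of 0.2, adjusted 0.2.

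FIS2 (FERTILIZATION INDEPENDENT SEED 2, AT2G35670), which works with MEA in the seed, was well above background on 1 array only, wild type array 2. Its scaled signals were 3.75, 7.95 and 6.08 in Atino80-5, against 4.10 and 44.5 in wild type. The gene did not pass the filter, which asked for 2 of the 5 arrays, and no change is given.

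The WD40 subunits are shared by all PRC2 forms. MSI1 (MULTICOPY SUPPRESSOR OF IRA1, AT5G58230) is the histone-binding subunit and serves in the chromatin assembly factor CAF-1 as well. It gave scaled signals of 11019, 10621 and 10943 in Atino80-5, against 13620 and 13765 in wild type. The groups lay far apart, with means of 10861 ± 211 (SD, n = 3) in Atino80-5 and 13692 ± 102 (SD, n = 2) in wild type. MSI1 fell by 0.33 ± 0.030 (SE, 95% interval -0.41 to -0.26) on the log2 scale, a 1.26-fold lower level, with an adjusted p of 0.00095 in limma. This was the largest change among the 8 genes, and 32.7% of all genes tested had a larger one. The log2 change of MSI1 ran from -0.39 to -0.30 over 22 alternative settings, and the call held in each of the 22. Slide 1 alone, where each genotype has 2 arrays, is the same fit as leaving out Atino80-5 array 3. In that fit MSI1 fell by 0.34 on the log2 scale, with an adjusted p of 0.00502 in limma. The calls on CLF (adjusted p of 0.0665) and EMF2 (adjusted p of 0.0614) were lost there, as given above.

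FIE (FERTILIZATION INDEPENDENT ENDOSPERM, AT3G20740), the gene of the other WD40 subunit, gave 4170, 4138 and 4096 in Atino80-5, against 4095 and 4146 in wild type. The values of the genotypes were interleaved. The log2 change of FIE was 0.0048 ± 0.026 (SE, 95% interval -0.063 to 0.073), with an adjusted p of 0.885 in limma, and 98.6% of all genes had a larger change. The sign of the FIE change turned under normexp background correction, quantile normalization, median scaling and the authors' value table. Within arrays, the log2 value of FIE minus that of MSI1 was 0.34 higher in Atino80-5, on every array, with the exact permutation p at its smallest possible value of 0.2, adjusted 0.2.

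LHP1 and EMF1 act together with PRC2 on silenced chromatin. LHP1 (LIKE HETEROCHROMATIN PROTEIN 1, AT5G17690, listed by RefSeq under TFL2) encodes a chromodomain protein that binds methylated lysine 27. It gave 4470, 4720 and 4605 in Atino80-5, against 4500 and 4479 in wild type. The values overlapped, since Atino80-5 array 1 lay below both wild type arrays. The log2 change of LHP1 was 0.034 ± 0.034 (SE, 95% interval -0.055 to 0.12), with an adjusted p of 0.430 in limma.

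EMF1 (EMBRYONIC FLOWER 1, AT5G11530), a plant-specific repressor of flowering genes, gave 2870, 2946 and 2976 in Atino80-5, against 3104 and 3075 in wild type. Every Atino80-5 array was below both wild type arrays. The log2 change of EMF1 was -0.076 ± 0.029 (SE, 95% interval -0.15 to 0.00074), which missed the threshold with an adjusted p of 0.0822 in limma. EMF1 was called lower under quantile normalization (log2 change of -0.10, adjusted p of 0.0352), median scaling (-0.14, adjusted p of 0.0154) and the authors' value table (-0.0997, adjusted p of 0.0350). Within arrays, the log2 value of LHP1 minus that of EMF1 was 0.11 higher in Atino80-5, with an exact permutation p of 0.2, adjusted 0.2.

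**Figure D2:**
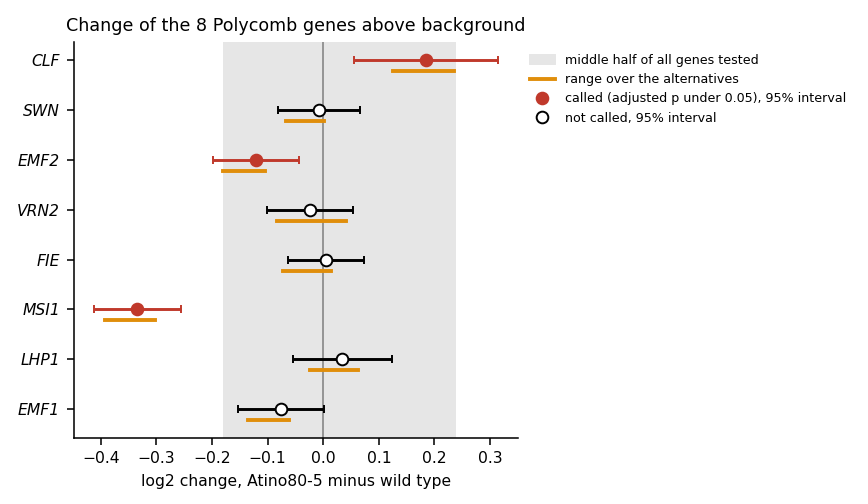
Log2 change (Atino80-5 minus wild type, x axis) of the 8 Polycomb genes above the filter, with its 95% interval; filled points passed the adjusted p threshold, the orange line under each point spans the values under the alternative settings, and the grey band holds the middle 50% of all genes tested. MSI1 is the gene whose point lies outside the band, at -0.33.

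The other genes of the Polycomb pathway were taken from lists, and each list is described by its counts and its median, with no set test. The first holds 11 partners of PRC2: the other members of the MSI family, a group of PHD finger genes and a few further interactors. Of the 9 above the filter, 2 rose, 2 fell and 5 did not pass the test. That is 44.4% called, against 57.1% of all genes, and the median log2 change was 0.014, against 0.0071 for all genes. Leaving out Atino80-5 array 3 left 2 genes called, both higher, with 52.3% of all genes then called. MSI5 (AT4G29730), a relative of MSI1, gave 799, 827 and 798 in Atino80-5, against 615 and 585 in wild type. MSI5 rose by 0.43 ± 0.037 (SE) on the log2 scale, with an adjusted p of 0.00086 in limma. VRN5 (AT3G24440), a PHD finger gene of the vernalization form of PRC2, rose by 0.19 ± 0.034 (SE). MSI4 (AT2G19520), known as FVE and as a repressor of FLC, fell by 0.12 ± 0.028 (SE), and MSI3 (AT4G35050) fell by 0.12 ± 0.032 (SE). The calls on MSI4, MSI3 and VRN5 were lost under 13, 12 and 5 of the 22 alternative settings, and that on MSI5 under 0. The partners VIN3, which cold induces, and VEL2 were below the filter.

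The second list holds 16 genes of PRC1 and of proteins that recruit the complexes to chromatin, all above the filter. Of these, 6 rose, 6 fell and 4 did not pass the test, with a median log2 change of -0.00040. The 12 called are 75% of the list, against 57.1% of all genes (30.7% higher and 26.4% lower). The counts depend on single arrays and on the scaling, and so does the share of all genes called. The replicate number as a block left 1 higher and 4 lower, with 42.1% of all genes called. Without Atino80-5 array 2, 3 were higher and 5 lower, with 50.1% of all genes called. Without Atino80-5 array 3, 4 were higher and 5 lower, with 52.3% of all genes called. Under median scaling 3 were higher, with 59.5% of all genes called. Among the smaller changes, AZF1, BPC6 and VAL2 lost their calls under 16, 17 and 12 of the 22 alternative settings. Its largest changes lay in the RING finger genes, whose products attach ubiquitin to histone H2A, and these went in opposite directions. RING1A (AT5G44280) gave 745, 702 and 728 in Atino80-5, against 411 and 415 in wild type. RING1B (AT1G03770) gave 378, 362 and 355 in Atino80-5, against 924 and 965 in wild type. In both genes the genotypes were far apart. RING1A rose by 0.81 ± 0.035 (SE) on the log2 scale, with an adjusted p of 0.00013 in limma, and RING1B fell by 1.37 ± 0.042 (SE), with an adjusted p of 5.9e-05 in limma.

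BMI1A (AT2G30580), a second type of RING finger gene of PRC1, gave 939, 932 and 929 in Atino80-5, against 1586 and 1643 in wild type. BMI1A fell by 0.79 ± 0.029 (SE) on the log2 scale, with an adjusted p of 8.8e-05 in limma, and its other probe fell by 0.86 ± 0.051 (SE). BMI1B (AT1G06770), its close relative, gave 1323, 1269 and 1294 in Atino80-5, against 1220 and 1274 in wild type. These values overlapped, and the log2 change of BMI1B was 0.055 ± 0.035 (SE), with an adjusted p of 0.242 in limma. VRN1 (AT3G18990), a DNA-binding protein gene of the vernalization response, fell by 0.22 ± 0.034 (SE). RING1A, RING1B, BMI1A and VRN1 kept their calls under all 22 alternative settings. Probe sequences were not used here, so how far close relatives such as RING1A and RING1B, or BMI1A and BMI1B, share signal is not known.

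**Figure D3:**
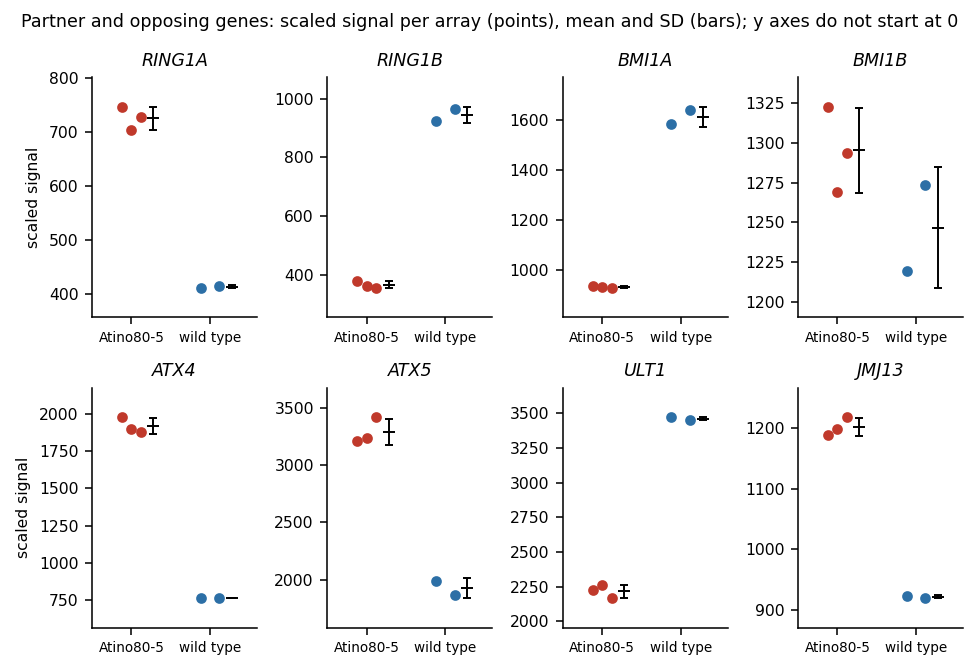
Scaled signal (arbitrary units, y axes not starting at 0) on each array of 4 genes of PRC1 (top) and 4 genes that oppose Polycomb silencing (bottom), with Atino80-5 (3 arrays, red) at the left and wild type (2 arrays, blue) at the right; bars give the mean and SD. RING1A, ATX4, ATX5 and JMJ13 lie higher and RING1B, BMI1A and ULT1 lower on all Atino80-5 arrays, while the arrays of BMI1B overlap.

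Genes that oppose Polycomb silencing were in 2 lists. Of the 5 demethylases of lysine 27, 1 rose, 3 fell and 1 did not pass the test, with a median log2 change of -0.21. The 4 called genes are 80% of this short list, against 57.1% of all genes. JMJ13 (AT5G46910) gave 1189, 1199 and 1219 in Atino80-5, against 923 and 919 in wild type, and rose by 0.38 ± 0.026 (SE). JMJ30 (AT3G20810) fell by 0.30 ± 0.041 (SE), ELF6 (AT5G04240) by 0.21 ± 0.034 (SE) and REF6 (AT3G48430) by 0.13 ± 0.028 (SE). The call on REF6 was lost under 7 of the 22 alternative settings, and those on JMJ13, JMJ30 and ELF6 under 0. JMJ32 was dim, above background on 1 of 3 Atino80-5 arrays and both wild type arrays, and was not called.

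The list of trithorax group genes and other antagonists had 14 members, of which 13 had a probe and 12 were above the filter. Of the 12, 4 rose, 3 fell and 5 did not pass the test, with a median log2 change of -0.035. The share called, 58.3%, is close to the 57.1% of all genes. Leaving out Atino80-5 array 1 or Atino80-5 array 3 gave 2 lower, with 55.2% and 52.3% of all genes then called. Median scaling gave 5 lower, with 59.5% of all genes called. ATX4 (AT4G27910), a SET domain gene of the trithorax family, gave 1981, 1899 and 1880 in Atino80-5, against 762 on both wild type arrays. ATX4 rose by 1.33 ± 0.034 (SE) on the log2 scale, with an adjusted p of 4.4e-05 in limma, and by 1.42 and 1.31 on its other probes. ATX5 (AT5G53430), a close relative of ATX4, gave 3208, 3238 and 3421 in Atino80-5, against 1991 and 1864 in wild type, and rose by 0.77 ± 0.048 (SE). ULT1 (AT4G28190), which counteracts CLF at AG in flowers, gave 2225, 2260 and 2164 in Atino80-5, against 3472 and 3453 in wild type. ULT1 fell by 0.64 ± 0.031 (SE), and by 0.51 on its other probe. ATXR3 (AT4G15180), the gene of a major methyltransferase of lysine 4 of histone H3, rose by 0.23 ± 0.029 (SE). ATX4, ATX5, ULT1 and ATXR3 kept their calls under all 22 alternative settings.

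The last list holds 26 genes known as targets of Polycomb silencing in Arabidopsis, most of them regulators of flowering, flower organs, meristems or seeds. Of the 22 above the filter, 13 rose, 4 fell and 5 did not pass the test, with a median log2 change of 0.32. The share called was 77.3%, against 57.1% of all genes (30.7% higher and 26.4% lower). Without Atino80-5 array 3 the list had 13 higher and 5 lower, with 52.3% of all genes then called. A gene near background can pass the filter through the genotype in which it is high, and 19 of the 22 were above background on all 5 arrays. Of the 4 that fell, AGL19, LEC2 and AP3 lost their calls under 4, 2 and 1 of the alternative settings, and FT under 0. AGL19 and LEC2 were dim, with mean signals of 70.3 and 50.7 in Atino80-5, against 96.6 and 72.7 in wild type. The floral organ identity genes AG (AT4G18960), PI (AT5G20240), SHP1 (AT3G58780) and SEP3 (AT1G24260) rose, by 1.33 ± 0.050, 1.16 ± 0.034, 1.03 ± 0.047 and 0.55 ± 0.028 (log2 scale, SE). AG gave 135, 129 and 124 in Atino80-5, against 50.4 and 52.6 in wild type, and it rose by 0.97 on its other probe. PI gave 2547, 2541 and 2650 in Atino80-5, against 1173 and 1136 in wild type.

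AP3, the partner gene of PI, was near background, with 15.3, 16.5 and 14.9 in Atino80-5, against 20.7 and 25.4 in wild type. It was called lower, but 1 of 3 Atino80-5 arrays and both wild type arrays were above background, so the size of its change is not given. FLC (AT5G10140), the flowering repressor that VRN2 keeps silent after cold, gave 2040, 1992 and 2050 in Atino80-5, against 619 and 653 in wild type. FLC rose by 1.67 ± 0.036 (SE), with an adjusted p of 3.1e-05 in limma, and its relative MAF4 (AT5G65070) rose by 0.50 ± 0.027 (SE). FT (AT1G65480), the flowering signal that FLC represses, gave 475, 478 and 476 in Atino80-5, against 1616 and 1552 in wild type. FT fell by 1.73 ± 0.030 (SE), with an adjusted p of 2.5e-05 in limma. DOG1 (AT5G45830), a seed dormancy gene, rose by 0.32 ± 0.027 (SE). Of the 13 target genes that rose, the class I KNOX meristem genes KNAT1 and STM each had another probe that was not called, with log2 changes of 0.091 and 0.098.

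**Figure D4:**
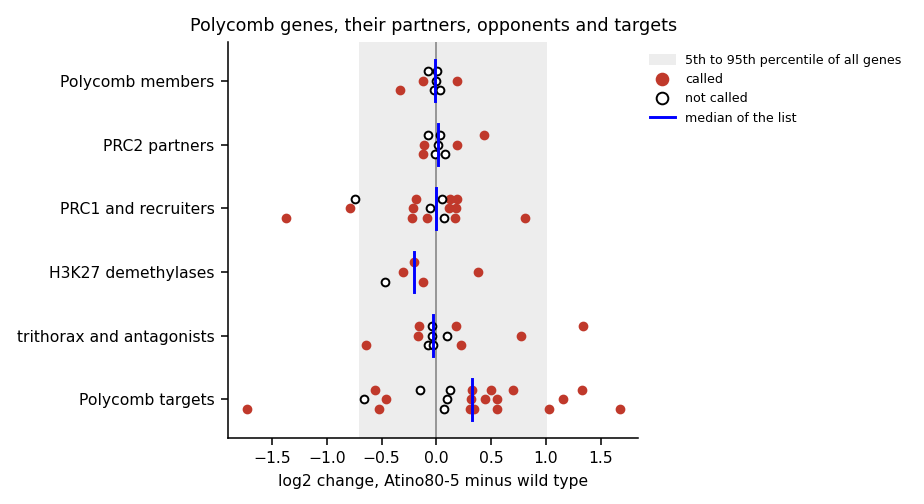
Log2 change (Atino80-5 minus wild type, x axis) of each gene above the filter in the Polycomb list and in 5 lists of partners, opponents and targets (rows); filled points passed the adjusted p threshold, blue lines mark list medians and the grey band spans the 5th to 95th percentile of all genes tested. The Polycomb genes lie between -0.33 and 0.18, while RING1B, BMI1A, BMI1C, ATX4, FT, FLC, PI, AG and SHP1 lie outside the band, BMI1C without passing the test.

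Markers of other tissues and of dividing cells were read on the same arrays. All 5 root markers rose, where 30.7% of all genes were called higher and 57.1% in either direction. The summed scaled signal of the root markers was 1635 to 1687 in Atino80-5, against 840 to 858 in wild type. Among them EXPA18, PLT2, PRP3 and EXPA7 rose by 1.25 ± 0.045, 1.09 ± 0.026, 1.08 ± 0.049 and 1.01 ± 0.049 (log2 scale, SE), and the count of 5 held under all 22 alternative settings.

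The 7 markers of endosperm and embryo were dim. CRU2, OLEO1, SESA1 and SESA3, genes of seed storage and oil body proteins, were not well above background on either wild type array, and so passed the filter through Atino80-5 alone. Their signals in Atino80-5 were at least 3.76-fold, 1.89-fold, 1.84-fold and 4.42-fold higher, on the brightest kept probe of each gene. Probes A_84_P811748 and A_84_P811756 of CRU2 and A_84_P810809 of SESA3 were below the filter. The other kept probes, A_84_P12895 of OLEO1 and A_84_P68434 of SESA3, were called higher. The bound on SESA1 includes Atino80-5 array 3, where its signal of 20.3 was below the lowest signal well above background, 21.4. SESA3 varied among the Atino80-5 arrays, with 125, 60.3 and 33.0. Each bound sets the Atino80-5 mean against the mean, over the wild type arrays, of the higher of the probe's own signal and the lowest signal well above background. CRU3 had 2 probes that disagreed. The probe A_84_P11966 of CRU3 gave 140, 168 and 163 in Atino80-5, against 31.7 and 7.25 in wild type, and was called, while A_84_P807923 gave 53.0, 74.0 and 63.3 in Atino80-5, against 63.0 and 42.9 in wild type, and was not. AGL62 did not pass the test and FWA was below the filter. With a filter asking for all 5 arrays, 2 of the 7 were kept, AGL62 and the other probe of CRU3 (adjusted p of 0.307 in limma), and neither was called, against 5 called with the filter used here. The summed signal of the 7, to which the called CRU3 probe and the 4 bounded genes contribute, was 438 to 501 in Atino80-5, against 130 to 168 in wild type. MEA and FIS2, which act in seeds, were not well above background on any Atino80-5 array.

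Of 9 markers of dividing cells, 5 rose and 4 did not pass the test. That is 55.6% called, all higher, against 30.7% of all genes called higher and 57.1% called in either direction. CYCB1;1, PCNA1, MCM5 and AUR1 rose by 0.25 ± 0.031, 0.20 ± 0.044, 0.16 ± 0.026 and 0.15 ± 0.034 (log2 scale, SE). The calls on PCNA1, AUR1 and MCM5 were lost under 6, 6 and 1 of the 22 alternative settings, and that on CYCB1;1 under 0. The count of higher genes was 3 without Atino80-5 array 2, with 50.1% of all genes then called. With the replicate number as a block the count was 1, with 42.1% of all genes called. Median scaling gave 3 higher and 1 lower, with 59.5% of all genes called. The summed signal was 52749 to 52860 in Atino80-5, against 49913 to 51999 in wild type. Of 5 leaf markers, PSAE-2 and LHCA2 fell, by 0.34 ± 0.028 and 0.37 ± 0.044 (log2 scale, SE), LHCB2.1 was called higher and 2 did not pass the test, a share of 60% called. LHCB2.1 had a log2 change of 0.18 on its brighter probe and -0.15 on the other, which was not called, and it lost its call under 6 of the 22 alternative settings. With the mean of a gene's probes, LHCB2.1 was not called (adjusted p of 0.813 in limma) and RCA was called lower (adjusted p of 0.0368 in limma). The summed signal was 1347720 to 1430700 in Atino80-5, against 1483200 to 1562010 in wild type. The root, leaf and dividing cell markers were above background on all 5 arrays. The part of these marker levels in the changes of the Polycomb genes, their partners and their targets was not tested.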

How the data were processed

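RNA from whole seedlings was measured on 1-colour Agilent arrays, 3 of Atino80-5 and 2 of wild type, with groups and replicate numbers taken from the sample titles. Per the labels' protocols, total RNA was prepared with TRIzol and labelled with Cy3 as cRNA. The deposited scanner files hold an intensity per spot, the processed signal, which Feature Extraction had background-subtracted per the file headers. The headers name version 10.7.3.1 with the protocol GE1_107_Sep09, and the submitters' processing notes name version 9.1. The authors' value table holds deposited log2 values, whose columns correlated with the log2 processed signals of their arrays at 0.9994 or more. Its column medians were 9.6216, 9.6213 and 9.6213 for Atino80-5 and 9.6208 and 9.6213 for wild type. From this match it was read as log2 without centring of genes. Each column holds 1 sample rather than a ratio, and the table served as an alternative.

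The 1417 control spots and 7 to 14 outlier spots per array were left out. The log2 processed signal minus the array's 75th percentile was averaged over spots of a probe. A probe was kept if 2 or more of the 5 arrays read it well above background, and a gene was represented by its kept probe with the highest mean. Of 43603 probes, 34285 matched 1 locus of the RefSeq table (assembly TAIR10.1, used for names only), 9318 matched none and 0 matched several. Coordinates are not given, since the array's design names another build. Atino80-5 minus wild type was fitted in R 4.3.3 by lmFit and eBayes of limma 3.58.1 (3 residual degrees of freedom, 4.55 with the prior), and the fit was tested on simulated data. The number of arrays limits the precision.

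The Polycomb genes and the lists were chosen with earlier results of these data known, so no list is independent support. The text names the 10 Polycomb genes, INO80, and from each list up to 4 genes with the smallest p (8 for the targets) and any called gene with a change of at least 2-fold. BMI1B, BMI1C, AZF1, BPC6, VAL2, AP3, AGL19, LEC2, JMJ32, KNAT1, STM, AGL62 and the genes below the filter were named after their values had been looked at. Alternatives covered the scaling (quantile, median, or the authors' value table), normexp background correction with an offset of 50, the filter, averaging probes per gene, eBayes with trend and robust options, and array weights. They further covered blocks for slide and replicate number, slide 1 alone, and each array left out. Normexp used the median foreground signal, since the files used hold no mean signal.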

Additional observations from a re-analysis of the deposited data

How the results depend on the processing

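Of the 22 alternative settings, 10 leave out 1 of the 5 arrays, with the probe of a gene chosen again or held. Others rest on the same 4 arrays as leaving out Atino80-5 array 3, so they are not separate checks. Slide 1 alone is that fit, and the slide block repeats it with probes held, since array 3 was by itself on slide 2. The replicate block leaves array 3 out as well. The number of genes called ran from 11189 to 16380 (main count 15229), always within 1.5 times of it. Of the 3 Polycomb genes called, 1 remained, MSI1, with the slide as a block (52.1% of all genes called), within slide 1 (52.3%) and with the replicate number as a block. Leaving out an Atino80-5 array gave 1 to 3 calls, with 48.8% to 55.2% of all genes called. The replicate number as a block gave log2 changes of 0.16 for CLF (adjusted p of 0.124 in limma), -0.11 for EMF2 (0.117) and -0.34 for MSI1 (0.0223), with 42.1% of all genes called. The deviations of same-numbered arrays from their genotype means correlated at 0.038 and 0.0050. With 2 wild type arrays the deviations of one mirror those of the other, so these values cannot tell what same-numbered arrays share. CLF kept its call under 9 of the 22 settings (log2 change 0.13 to 0.23, adjusted p 0.00337 to 0.140) and EMF2 under 11 (-0.18 to -0.11, 0.00624 to 0.124). With quantile normalization, median scaling or the authors' value table, CLF lost its call and EMF1 gained one. The columns of the authors' value table share a 75th percentile of 12.1505. Its log2 changes of CLF (0.135) and EMF1 (-0.0997) lie close to those under quantile normalization (0.135 and -0.100). These settings may therefore not be separate scalings. The signs that turned belong to genes that were not called, and the cause was not tested. SWN turned under normexp (0.00083) and ran from -0.021 to 0.00054 when an array was left out. VRN2 turned under normexp (0.041) and with the mean of its probes (0.0066), and LHP1 under median scaling (-0.024). FIE turned under normexp (-0.072), quantile normalization (-0.017), median scaling (-0.054) and the authors' value table (-0.018), and ran from -0.0041 to 0.014 (-0.0014 without Atino80-5 array 1, with each gene's probe held) when an array was left out. Median scaling moved the median of all genes to -0.052, and 42.9% of calls were then higher in Atino80-5, against 53.8% in the main setting.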
